A study of Macaca fascicularis with 44 samples.

Results

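Neural ectoderm is the layer from which the neural tube, and thus brain and spinal cord, arises. In a study of cynomolgus monkey embryos (Macaca fascicularis) cultured in 3 dimensions from the blastocyst stage, 59 of 3682 single cells (1.60%) carried this class name in the authors' deposited annotation of cells, and the cells described here were taken by that name alone. The whole series covers 44 libraries of 9 wild type embryos, from embryonic day E16 to E25, and measures RNA of single cells; per the labels' protocol, the embryonic body was digested to single cells after removal of extraembryonic tissue. Of the 59 cells, 57 came from the single female embryo of E22, whose 529 cells lie in libraries 28 to 33 and include 197 that the annotation names Extraembryonic Mesoderm. The comparisons set these 57 Neural ectoderm cells against the 47 Non-neural ectoderm cells and the 170 Mesoderm cells of the same embryo, with no treatment and no genotype difference between the groups. All 3 classes share the culture of an expanded blastocyst, made by sperm injection into an oocyte, and a library is a share of 1 embryo, so every p-value measures only the spread between libraries of 1 animal.

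Neural ectoderm folds into the neural tube, while the neighbouring surface ectoderm becomes skin and the mesoderm forms muscle, bone and vessels. Transcription factors of the SOX, ZIC and PAX families mark neural progenitors, with PAX3, ZIC1 and the ligand WNT1 on the dorsal side. HOX genes, whose order on the chromosome follows the body axis, mark hindbrain and spinal cord, whereas OTX2 and SIX3 mark forebrain. Cells at the border between neural and surface ectoderm give rise to the neural crest.

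The authors' class was 1 of their fine expression clusters, since all 59 cells lie in 1 of 26 clusters at their finest resolution and no cell of another class lies there. Calls between classes therefore describe how large and how steady a difference was over libraries, and they are no independent test that the class exists. At a coarser resolution 58 of the 59 cells shared a cluster with 231 Mesoderm cells, and 1 cell lay with Non-neural ectoderm and epiblast (EPI) cells. Over 9210 genes, the log2 profile of pooled Neural ectoderm cells had a Pearson r of 0.928 with Mesoderm of E22, 0.892 with Non-neural ectoderm of E22, 0.879 with EPI, 0.864 with the primitive streak class (PS and derivative) and 0.833 with Endoderm. These are descriptions across genes, which are not independent, and the first 2 pairs share libraries and embryo.

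Depth per cell differed between the classes by less than its spread over libraries. A Neural ectoderm cell of E22 had a median of 111271 counts (8244 to 426960) and 4943 detected genes, against 114492 counts and 4793 genes in Non-neural ectoderm and 90105 counts and 4668 genes in Mesoderm. Over the 5 libraries with at least 5 Neural ectoderm cells, the median count per cell differed by 1750 ± 34913 (SD) from that of the other 2 classes, with a higher value in 2 of 5 libraries and a two-sided exact permutation p of 0.875. The number of genes differed by 233 ± 426 (SD), higher in 3 of 5 libraries (exact permutation p = 0.375), and the smallest p that this design allows is 0.0625. Counts of genes of other cell types were present at low level: APOA1, a plasma protein gene of endoderm, had a count in 26 of the 57 Neural ectoderm cells at 8.21 CPM, the count scaled to a common library total, in the pooled cells, against 11072 CPM in Endoderm. Shares of cells with a count are to be read against that background. CPM values here are not divided by gene length, so levels are compared between classes and not between genes.

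Within the E22 embryo the class made up 57 of 529 cells, a share of 10.8% (95% exact binomial interval 8.26 to 13.7, counting error only) and 19.9% of the 286 cells of embryonic classes. Library 30 held the most, with 16 of 88 cells (18.2%), then library 32 with 13 of 89 (14.6%), library 28 with 11 of 91 (12.1%), library 31 with 7 of 80 (8.75%), library 29 with 7 of 93 (7.53%) and library 33 with 3 of 88 (3.41%). The mean over the 6 libraries was 10.8 ± 5.29% (SD, n = 6). A deposited pairing table names a DNA library for 56 of the 57 cells. No Neural ectoderm cell was found among 547 cells of E23, 186 of E24 and 457 of E25, which allows shares of up to 0.548%, 1.61% and 0.656%. Each of these days is 1 embryo, so day and embryo cannot be told apart.

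The other 2 cells of the class came from single libraries of E21 and E18 and carried few counts of its markers. The E21 cell had 29837 counts, of which 1 was CRABP1, 2 were ZIC2 and none was SOX2 or TUBB3, beside 12 of the pluripotency-associated gene DPPA4, 4 of NANOG and 18 of the epithelial gene EPCAM. The E18 cell had 157547 counts, of which 1 was CRABP1 and none ZIC2, SOX2 or TUBB3, beside 23 of DPPA4 and 50 of EPCAM. Both cells were left out of all comparisons, and the results below concern the 57 cells of E22.

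The 4 markers given for the class were checked first. CRABP1, which binds retinoic acid inside the cell, had 761, 531, 934, 462 and 1206 CPM in Neural ectoderm of libraries 28 to 32, against 148, 16.3, 14.8, 45.4 and 74.1 CPM in Non-neural ectoderm and 192, 164, 72.1, 426 and 68.8 CPM in Mesoderm of the same libraries. Every Neural ectoderm value lay above every value of the other classes. Against the mean of the other classes the log2 difference was 3.12 ± 0.41 (approximate standard error, edgeR quasi-likelihood test, adjusted p = 5.8e-05). The Benjamini-Hochberg adjustment ran over 9210 genes. The difference was 4.09 ± 0.50 against Non-neural ectoderm and 2.15 ± 0.49 against Mesoderm. The 3 cells of library 33, too few for a sum, had 819.9 CPM of CRABP1 together. All adjusted p-values below come from this test, and a gene is called where its adjusted p is under 0.05.

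ZIC2, a zinc finger factor needed for neural tube closure, had 58.9, 145, 66.6, 16.6 and 181 CPM in Neural ectoderm, against 3.65, 0, 0, 20.4 and 13.6 CPM in Non-neural ectoderm and 9.79, 12.1, 18.6, 0 and 4.71 CPM in Mesoderm. Library 31 was the exception, since its Neural ectoderm value lay below its Non-neural ectoderm value, and the other 4 libraries had Neural ectoderm on top. ZIC2 was called against the mean of both classes (3.23 ± 0.75, adjusted p = 0.017) and against neither class alone. Its call was lost on leaving out library 28, 29 or 32 in turn (2.91 to 3.27), and with sums of at least 10 cells, which leave Non-neural ectoderm of library 31 as the sole sum of that class, its sign turned (-1.15, adjusted p = 0.99). The stem cell and neural progenitor factor SOX2 had 13.5, 20.7, 26.5, 4.14 and 49.8 CPM in Neural ectoderm, against 0, 0, 0, 0 and 2.73 CPM in Non-neural ectoderm and 0.228, 1.93, 0, 0 and 5.38 CPM in Mesoderm. Neural ectoderm was highest within each library, but its value in library 31 lay below the Mesoderm value of library 32. SOX2 was under the filter on low counts, and in a fit without that filter its log2 difference was 5.39 ± 1.08 (adjusted p = 7.1e-05).

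TUBB3, a tubulin of neurons, was the 1 marker of the 4 without a call. It had 7.09, 4.696, 26.01, 24.9 and 27.6 CPM in Neural ectoderm, against 16.4, 0, 0, 0 and 9.27 CPM in Non-neural ectoderm and 2.05, 0.552, 6.43, 42.2 and 17.7 CPM in Mesoderm, and the classes overlapped. Its log2 difference of 1.68 ± 1.00 was not called (adjusted p = 0.53), nor in 13 of 14 alternative settings, and in the remaining one, sums of at least 10 cells, it was 6.26. CRABP1 had a count in 56 of 57 Neural ectoderm cells, against 34 of 47 Non-neural ectoderm and 119 of 170 Mesoderm cells. The same numbers were 39 of 57, against 10 of 47 and 28 of 170, for ZIC2, then 19 of 57, against 1 of 47 and 4 of 170, for SOX2, and 13 of 57, against 4 of 47 and 17 of 170, for TUBB3. Each of the 57 cells had a count of at least 1 of the 4 markers, 44 of at least 2, 22 of at least 3 and 4 of all 4. Of the 4 markers, CRABP1, ZIC2 and, without the filter, SOX2 were called higher in the class, and TUBB3 was not.

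**Figure D1:**
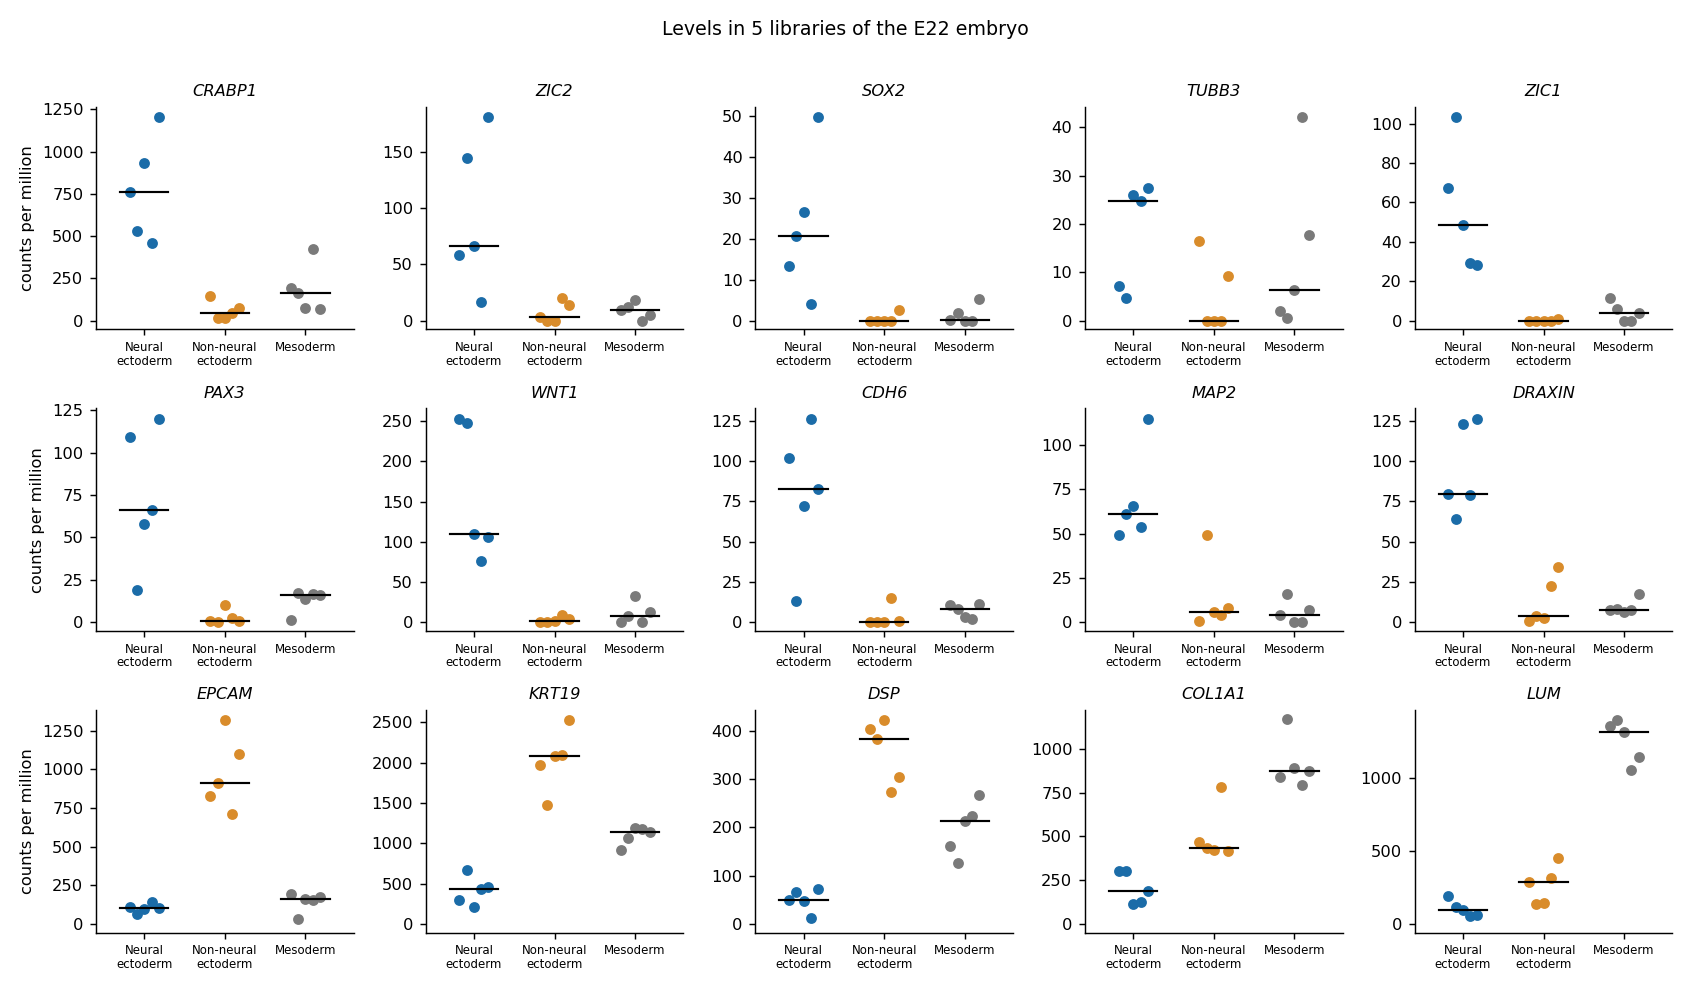
Level of 15 genes in CPM (vertical axis, linear, own scale per gene) in Neural ectoderm, Non-neural ectoderm and Mesoderm of libraries 28 to 32 of the E22 embryo. Points are libraries and bars are medians. CRABP1 lies at 462 CPM or above in every Neural ectoderm library and at 426 CPM or below in every other sum, TUBB3 overlaps between classes, and EPCAM, KRT19, DSP, COL1A1 and LUM lie lower in Neural ectoderm than in at least 1 of the other classes.

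Across all genes, 120 of 9210 (1.30%) were called higher and 165 (1.79%) lower in Neural ectoderm than the mean of both classes, 285 (3.09%) in all, and the median log2 difference was -0.03. Against Non-neural ectoderm alone 157 genes (1.70%) were called higher and 222 (2.41%) lower, 379 (4.12%) in all. Against Mesoderm alone 38 (0.413%) were called higher and 95 (1.03%) lower, 133 (1.44%) in all. At an unadjusted p under 0.05 there were 1212 genes in the first comparison. Called higher against both classes on their own were 19 genes, among them CRABP1, ZIC1, ZIC4, WNT1, MAP2, DRAXIN, PTN, CNTNAP2, CKB, TUBB2B, PPP1R1A, CALM2, ENO1, DDIT4, CENPF, CKS2, HMGB2 and SGO1, and 55 genes were called lower against both. Without library 28, 30 or 31 the count of 285 dropped to 155, 172 and 177, and without library 28 the 379 calls against Non-neural ectoderm dropped to 244. The 133 calls against Mesoderm dropped to 86, 80 and 69 without library 28, 30 or 32. With sums of at least 10 cells, which leave Neural ectoderm of libraries 28, 30 and 32 and Non-neural ectoderm of library 31, 30 of the 80 genes followed over all settings lost the call with the same sign, and ZIC2 lost it with its sign turned (-1.15). Among the 30 were ZIC1 (3.57), ZIC4 (5.65), WNT1 (0.12), CDH6 (1.94), RFX4 (1.97), MAP2 (2.82) and GLRA1 (3.53), given as log2 differences. Also among them were HOXA3 (1.36), FABP7 (4.70), CNTNAP2 (1.27), CALM2 (0.59), ENO1 (0.30), PGK1 (0.23), DDIT4 (0.79), BUB1 (0.87), CCND1 (0.99) and TYMS (0.66), which had been called higher. The remaining 13 had been called lower: DHRS3 (-2.51), BAMBI (-1.03), BMP2 (-1.56), FZD6 (-2.83), CLDN7 (-2.05), LAMA5 (-2.64), GABRP (-3.07), PAGE4 (-1.36), SLC2A1 (-0.43), FRMD4B (-1.70), CYP1B1 (-2.09), COX4I2 (-1.82) and EFNA1 (-1.49). CRABP1, PAX3, DRAXIN, DPYSL5, TUBB2B and PTN kept the call in every one of the 14 settings.

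**Figure D2:**
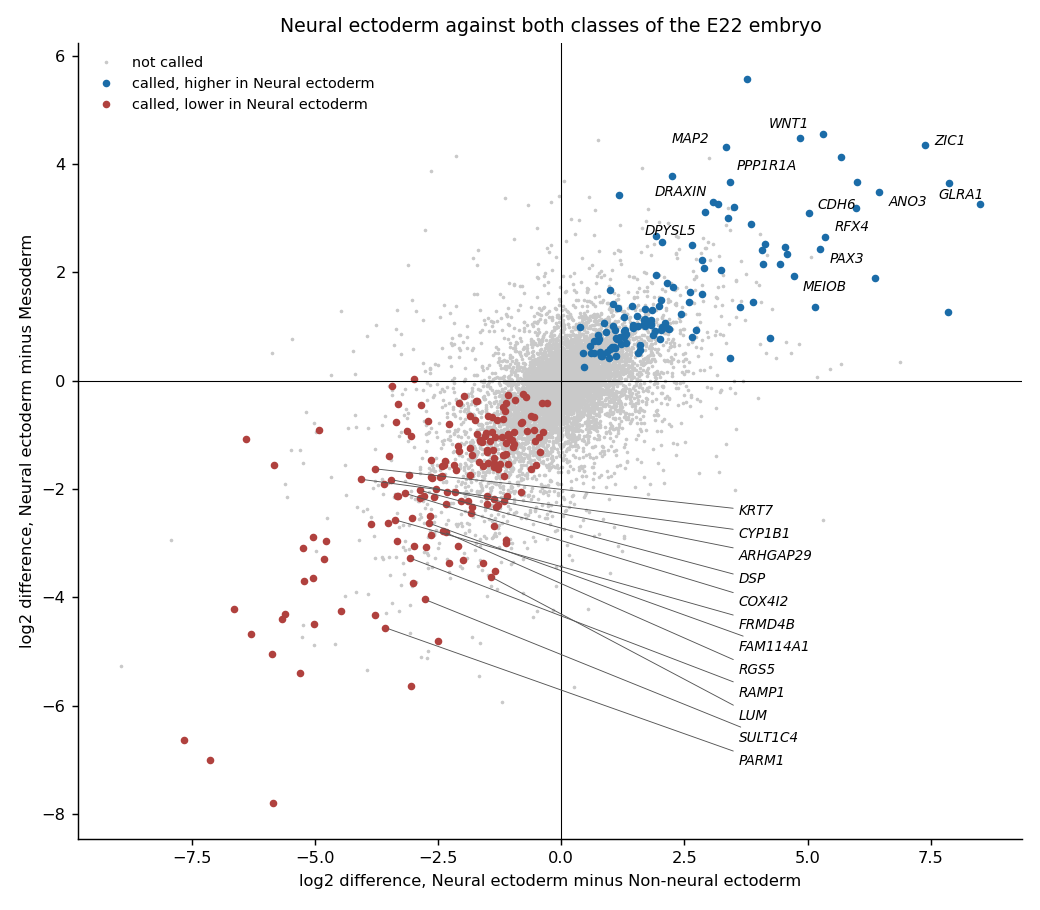
Each point is 1 of 9210 genes. The horizontal axis is the log2 difference of Neural ectoderm minus Non-neural ectoderm and the vertical axis that of Neural ectoderm minus Mesoderm, both in the E22 embryo. Blue and red points are the 120 genes called higher and the 165 called lower against the mean of both classes, and names mark the 12 genes named by rule in each direction. ZIC1, GLRA1, ANO3 and WNT1 lie far to the upper right, and PARM1, SULT1C4 and LUM to the lower left.

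Among genes of neural progenitors, 5 of 12 tested were higher in Neural ectoderm and none was lower, with a median log2 difference of 1.23 over the 12 (1.30% of all genes were higher and 1.79% lower). The 5 were VIM, FABP7, ZIC1, ZIC2 and CRABP1, of which CRABP1 and ZIC2 are also markers given for the class. Genes nearly absent from the other classes could pass the filter on low counts only where Neural ectoderm was high. The share is therefore no independent support for the class. The same limit holds for the lists below, where WNT1, ZIC4, CDH6 and MAP2 were low in most sums of the other classes. The shares of all genes given here are the background for every list. A single call describes 1 gene and not its list. ZIC1, a partner of ZIC2 in dorsal neural tissue, had 67.4, 103, 48.4, 29.003 and 28.4 CPM in Neural ectoderm, against 0, 0, 0, 0 and 1.09 CPM in Non-neural ectoderm and 11.6, 6.07, 0, 0 and 3.81 CPM in Mesoderm. No value of the other classes reached the lowest Neural ectoderm value, and ZIC1 was called against both classes (5.87 ± 0.83 against their mean, adjusted p = 1.6e-04). VIM, an intermediate filament gene of progenitors and mesenchyme, had 511, 605, 950.2, 843 and 929.7 CPM in Neural ectoderm, against 230.0, 161, 272, 270.2 and 321 CPM in Non-neural ectoderm and 382, 566, 709, 526 and 461 CPM in Mesoderm. It was higher than both classes in each of the 5 libraries but by little against Mesoderm (0.52 ± 0.17, adjusted p = 0.15), and its call came from Non-neural ectoderm (1.55 ± 0.17).

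FABP7, a fatty acid binding protein of radial glia, rested on 9 of 57 cells with 8.51, 8.45, 23.7, 31.1 and 46.2 CPM in Neural ectoderm. No count of it was seen in Non-neural ectoderm, and the Mesoderm values were 5.92, 5.24, 0, 0.383 and 3.81 CPM. In PS and derivative cells, nearly all of other embryos, FABP7 had a count in 34 of 228. Its median there was 6.43 CPM (0.826 to 30.9 over 7 libraries), so the gene was not particular to Neural ectoderm. Its call (adjusted p = 0.014) was lost on leaving out library 31 or 32 in turn (5.44 to 5.52), where the fitted difference of a gene at 0 in 1 class depends on the prior count. NES, the nestin gene of neural stem cells, was not called against the mean (1.42 ± 0.46, adjusted p = 0.12), with a median of 62.9 CPM in Neural ectoderm, 6.13 CPM in Non-neural ectoderm and 56.7 CPM in Mesoderm. Other classical genes of neural plate had few or no counts. SOX1, SOX3, SOX21 and the NOTCH target HES5 had no count in any of the 57 cells. PAX6 had a count in 6 of 57 cells, and 1 cell gave 56.4% of its counts.

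Of 7 dorsal neural tube genes tested, PAX3 and ZIC4 were called higher and BMP4 lower, and the median of the list was 0.87. Over all genes 1.30% were called higher and 1.79% lower. As ZIC4 was near 0 in the other classes, the share is no independent support for a dorsal identity. PAX3, which marks dorsal neural tube, crest precursors and somites, had 109, 18.8, 57.96, 66.3 and 120.0 CPM in Neural ectoderm, against 0.913, 0, 10.4, 2.35 and 0.545 CPM in Non-neural ectoderm and 1.59, 17.1, 13.6, 16.9 and 16.1 CPM in Mesoderm. All 5 Neural ectoderm values exceeded all others, though that of library 29 was close to the Mesoderm value of the same library. The log2 difference was 3.85 ± 0.69 (adjusted p = 0.0017), and against Mesoderm alone it was 2.44 ± 0.81 and not called (adjusted p = 0.16). ZIC4 had 82.96, 73.3, 15.1, 16.6 and 16.9 CPM in Neural ectoderm, against 0.913, 0, 0, 0 and 1.09 CPM in Non-neural ectoderm and 5.46, 4.42, 2.86, 0.383 and 0 CPM in Mesoderm, so that libraries 28 and 29 carried most of it (4.91 ± 0.82, adjusted p = 0.0011).

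BMP4, the ligand that patterns the dorsal side from the overlying surface ectoderm, had 55.3, 38.5, 45.2, 35.2 and 35.6 CPM in Neural ectoderm, against 202, 135, 315, 82.2 and 143 CPM in Non-neural ectoderm and 192, 162, 144, 219 and 234 CPM in Mesoderm. Neural ectoderm lay below both classes in all 5 libraries without overlap (-2.12 ± 0.27, adjusted p = 4.3e-05). The dorsal homeobox genes MSX1 and MSX2 were not called, with medians of 32.4 and 47.9 CPM in Neural ectoderm, against 21.9 and 17.4 CPM in Non-neural ectoderm and 30.6 and 18.8 CPM in Mesoderm. Roof plate genes gave little signal: LMX1A had a count in 1 cell and GDF7 in none. PAX7, of the dorsal midbrain and spinal cord, was seen in 7 of 57 Neural ectoderm cells, 2 of 47 Non-neural ectoderm cells and 1 of 170 Mesoderm cells, and was called without the filter on low counts (4.92 ± 1.43, adjusted p = 0.025).

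Position along the body axis was read from midbrain and hindbrain genes, HOX genes and forebrain factors. WNT1, the ligand of the midbrain and of the dorsal midline, had 253, 248, 110.0, 76.7 and 106 CPM in Neural ectoderm, against 0.913, 0, 1.48, 8.62 and 4.36 CPM in Non-neural ectoderm and 0.228, 8.28, 32.1, 0 and 13.4 CPM in Mesoderm. The lowest Neural ectoderm value was above the highest of the other classes, and WNT1 was called against both (4.93 ± 0.74 against the mean, adjusted p = 3.4e-04). It had a count in 21 of 57 Neural ectoderm cells, 5 of 47 Non-neural ectoderm cells and 16 of 170 Mesoderm cells. EN1 and EN2, which mark the boundary of midbrain and hindbrain with WNT1 in vertebrates, had no count in any Neural ectoderm cell, and PAX2 had a count in 1 cell and PAX8 in 3.

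Of 10 midbrain and hindbrain genes tested, WNT1 and HOXA2 were called higher and none lower (median 0.56). HOXA2, a hindbrain gene, had 47.5, 47.9, 43.8, 6.21 and 21.3 CPM in Neural ectoderm, against 14.6, 0, 0, 0 and 2.73 CPM in Non-neural ectoderm and 16.6, 13.8, 0.714, 3.07 and 2.02 CPM in Mesoderm (3.24 ± 0.84, adjusted p = 0.032). Its call was lost on leaving out library 28, 29, 30, 31 or 32 in turn (2.55 to 3.88). EGR2, a factor of 2 hindbrain segments in mouse and also an immediate early gene, had 167, 86.4, 100.0, 18.6 and 75.6 CPM in Neural ectoderm, against 38.3, 79.7, 62.2, 32.9 and 4.36 CPM in Non-neural ectoderm and 58.7, 52.2, 7.14, 13.8 and 14.1 CPM in Mesoderm, and was not called (1.43 ± 0.47, adjusted p = 0.12).

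HOX genes were expressed in nearly every cell, with a count of at least 1 HOX gene in 56 of 57 Neural ectoderm cells, all 47 Non-neural ectoderm cells and 167 of 170 Mesoderm cells. A Neural ectoderm cell had a median of 9 HOX genes, against 6 in Non-neural ectoderm and 9 in Mesoderm. Summed over the 12 genes of paralog groups 1 to 4, the anterior end, the pooled level was 462 CPM in Neural ectoderm, 262 CPM in Non-neural ectoderm and 205 CPM in Mesoderm. For the 15 genes of groups 9 to 13 it was 284 CPM in Neural ectoderm, 182 CPM in Non-neural ectoderm and 384 CPM in Mesoderm. Groups 5 to 8 were near each other, with 265 CPM in Neural ectoderm, 226 CPM in Non-neural ectoderm and 267 CPM in Mesoderm.

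By library, group 1 summed to 43.96, 41.3, 64.4, 16.6 and 90.7 CPM in Neural ectoderm, against 57.5, 106, 135, 86.9 and 90.5 CPM in Non-neural ectoderm and 18.9, 8.55, 10.7, 25.7 and 24.2 CPM in Mesoderm, and was below Non-neural ectoderm in 4 of 5 libraries. Group 3 summed to 167, 295, 145, 116 and 237 CPM in Neural ectoderm, against 52.9, 121, 26.6, 94.8 and 93.2 CPM in Non-neural ectoderm and 69.7, 41.7, 57.1, 54.8 and 80.9 CPM in Mesoderm, with no overlap with Mesoderm and 1 Non-neural ectoderm value inside the Neural ectoderm range. Group 2 summed to 150.3, 105, 108, 60.1 and 76.4 CPM in Neural ectoderm, against 96.7, 10.2, 31.1, 41.5 and 38.2 CPM in Non-neural ectoderm and 36.6, 49.1, 32.1, 22.2 and 31.4 CPM in Mesoderm. Group 10 went the other way against Mesoderm, with 51.1, 18.8, 48.4, 74.6 and 8.89 CPM in Neural ectoderm and 99.9, 114, 53.6, 91.2 and 105 CPM in Mesoderm, though the ranges overlapped. Group 9 summed to 70.9, 364, 301, 336 and 149 CPM in Neural ectoderm and 180, 263, 360, 266 and 293 CPM in Mesoderm. Its Neural ectoderm value lay below Mesoderm in libraries 28, 30 and 32. In Non-neural ectoderm group 9 summed to 187, 22.5, 172, 64.2 and 161 CPM. Of 21 genes of groups 3 to 13 tested, HOXA3 alone was called (median of the 21, 0.34), with 21.98, 181, 47.01, 31.1 and 131 CPM in Neural ectoderm, against 19.2, 6.13, 4.44, 34.5 and 19.1 CPM in Non-neural ectoderm and 16.8, 11.6, 4.29, 16.1 and 29.6 CPM in Mesoderm. Its log2 difference was 2.30 ± 0.58 (adjusted p = 0.029), and the call was lost on leaving out library 29, 30 or 32 in turn (1.69 to 2.30). Paralogs resemble each other and HOX transcripts overlap, and whether strand was used in counting is not given in the sources used here, so single HOX genes are less certain than group sums.

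**Figure D3:**
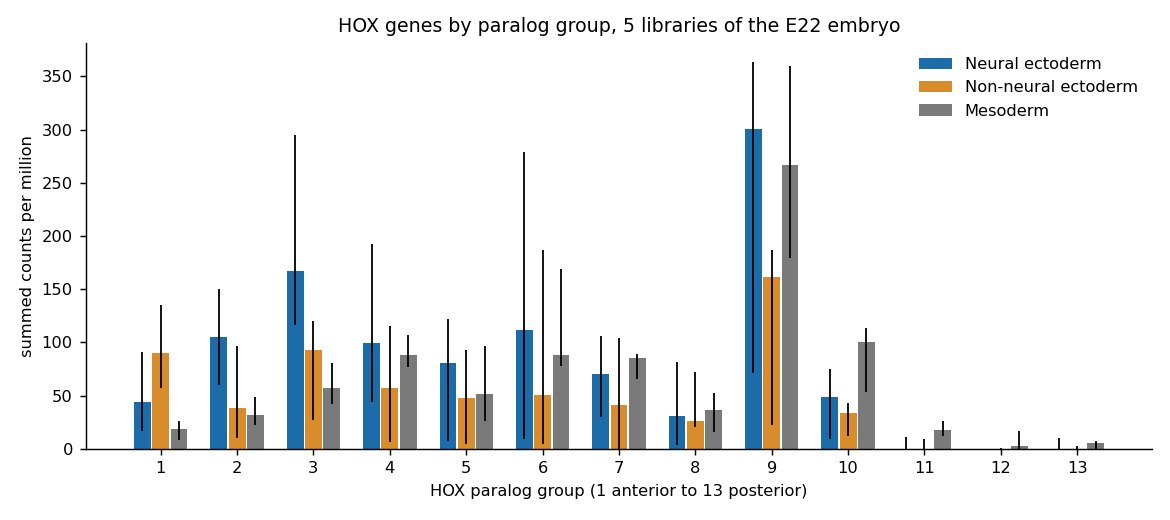
Summed level of HOX genes by paralog group (horizontal axis, from anterior group 1 to posterior group 13) in CPM (vertical axis), in Neural ectoderm, Non-neural ectoderm and Mesoderm of the E22 embryo. Bars are medians over libraries 28 to 32 and lines run from the lowest to the highest library. By median, groups 2 to 6 and group 9 are highest in Neural ectoderm, though in groups 4 to 6 and 9 its range overlaps with Mesoderm. Group 9 has a median of 301 CPM in Neural ectoderm and 266 CPM in Mesoderm, and groups 11 to 13 are near 0 in Neural ectoderm.

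Both anterior groups 1 to 4 and posterior groups 9 to 13 had a count in 40 of the 57 Neural ectoderm cells, 14 had groups 1 to 4 without groups 9 to 13, 1 had groups 9 to 13 without groups 1 to 4, and 1 had no HOX count. Detection of either range was not particular to the class. Groups 1 to 4 were seen in 54 of 57 Neural ectoderm, 44 of 47 Non-neural ectoderm and 157 of 170 Mesoderm cells. For groups 9 to 13 the numbers were 41 of 57, 34 of 47 and 156 of 170. Such counts do not place a single cell along the axis. Forebrain was barely represented. The 8 forebrain factors OTX2, SIX3, SIX6, RAX, LHX2, HESX1, EMX2 and FEZF2 had a count in 6 of 57 Neural ectoderm cells, against 10 of 47 Non-neural ectoderm and 24 of 170 Mesoderm cells, and summed to 7.91 CPM in Neural ectoderm, against 14.2 CPM in Non-neural ectoderm and 9.93 CPM in Mesoderm. OTX2 had a count in 1 Neural ectoderm cell. Of the 20 genes of the forebrain and eye field list, 14 had no count in Neural ectoderm, and of 4 tested SFRP2 alone was called. SFRP2, a secreted WNT inhibitor that is not confined to forebrain, had 152, 68.6, 241, 116 and 194 CPM in Neural ectoderm, against 0, 6.13, 34.05, 23.5 and 65.9 CPM in Non-neural ectoderm and 61.5, 58.5, 122, 70.2 and 80.7 CPM in Mesoderm (1.84 ± 0.40, adjusted p = 0.0095); the call was lost without library 30 (1.84), and it was also lost without the replicate block (1.51) and with Extraembryonic Mesoderm in the fit (1.71).

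Ventral neural tube genes were at the limit of detection, since 8 of 15 had no count in Neural ectoderm and 1 was tested and not called. SHH, the ventral signal of notochord and floor plate, had a count in 1 of 57 Neural ectoderm cells. FOXJ1, a factor of motile cilia found in floor plate, was seen in 12 of 57 Neural ectoderm cells, 1 of 47 Non-neural ectoderm cells and 2 of 170 Mesoderm cells. Without the filter on low counts FOXJ1 was called (5.94 ± 1.40, adjusted p = 0.0016). Of the 4 neuromesodermal and tail bud genes tested, none was called, and the streak and notochord factor TBXT had no count in the 57 cells. WNT8A, a further gene of that list, was under the filter and was called higher without it.

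Neural crest genes were mixed. Of 12 tested, CDH6 was higher and none was lower (median 0.53). CDH6, a cadherin of neural folds and early crest in mouse and chick, had 102, 13.1, 72.1, 126 and 82.7 CPM in Neural ectoderm, against 0, 0, 0, 14.9 and 1.09 CPM in Non-neural ectoderm and 10.47, 8.002, 3.57, 1.92 and 11.2 CPM in Mesoderm. Neural ectoderm was highest within each library, but its library 29 value lay below the Non-neural ectoderm value of library 31 (4.06 ± 0.71, adjusted p = 0.0015). The crest markers SOX10 and FOXD3 were seen in few cells. SOX10 had a count in 11 of 57 Neural ectoderm cells, 3 of 47 Non-neural ectoderm cells and 7 of 170 Mesoderm cells, with 59.2% of its Neural ectoderm counts in 1 cell, and FOXD3 was seen in 2 Neural ectoderm cells and in no cell of the other classes.

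TFAP2A, a factor of surface ectoderm and crest, lay between the other classes in 4 of 5 libraries, with 59.6, 19.7, 198, 172 and 36.4 CPM in Neural ectoderm, against 375, 576, 484, 229 and 146 CPM in Non-neural ectoderm and 35.3, 18.8, 15.7, 35.7 and 43.03 CPM in Mesoderm. It was called lower than in Non-neural ectoderm (-2.13 ± 0.48, adjusted p = 0.0097) and not against Mesoderm (1.37 ± 0.47, adjusted p = 0.19). SNAI2 was not called (0.64 ± 0.37, adjusted p = 0.51). None of 9 cranial placode genes tested was called (median -1.15).

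Genes of neurons and axons gave few calls. Of 7 neuronal genes tested, MAP2 was higher and none was lower (median 1.51). MAP2, which binds microtubules in dendrites, had 48.9, 61.1, 65.7, 53.9 and 115 CPM in Neural ectoderm, against 0.913, 49.04, 5.92, 3.92 and 8.18 CPM in Non-neural ectoderm and 4.32, 16.005, 0, 0.383 and 6.95 CPM in Mesoderm. The value of library 32 stood far above the other 4 Neural ectoderm libraries, and the Non-neural ectoderm value of library 29 was just above the lowest Neural ectoderm value. MAP2 was called against both classes (3.83 ± 0.63 against the mean, adjusted p = 8.1e-04).

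Neuronal markers were sparse. ELAVL4, an RNA-binding protein gene of neurons, was seen in 14 of 57 Neural ectoderm cells, 3 of 47 Non-neural ectoderm cells and 12 of 170 Mesoderm cells and was not called (3.32 ± 1.22, adjusted p = 0.18). The NOTCH ligand DLL1 was seen in 11 Neural ectoderm cells, with 65.7% of its counts in 1 of them, and was not called (2.46 ± 1.06, adjusted p = 0.30).

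A pair of axon growth genes lay above both other classes of E22 in all 5 libraries. DRAXIN, a secreted guidance protein that also inhibits WNT signals, had 79.4, 63.9, 123, 78.7 and 126 CPM in Neural ectoderm, against 0.913, 4.09, 2.96, 22.7 and 34.3 CPM in Non-neural ectoderm and 7.74, 8.002, 6.43, 7.67 and 17.3 CPM in Mesoderm. The classes did not overlap, and DRAXIN was called against both (3.37 ± 0.55, adjusted p = 8.1e-04). DPYSL5, a collapsin response mediator of growth cones, had 79.4, 101, 58.4, 37.3 and 63.1 CPM in Neural ectoderm, against 19.2, 6.13, 0, 3.92 and 9.27 CPM in Non-neural ectoderm and 2.05, 20.4, 6.43, 4.22 and 5.603 CPM in Mesoderm, also without overlap (3.19 ± 0.62, adjusted p = 0.0041). Over the 27 axon guidance and ephrin genes tested, DPYSL5 was the 1 called higher and the ephrin gene EFNA1 the 1 called lower (median -0.20). Single calls do not set this list apart from all genes, of which 1.30% were called higher and 1.79% lower. EFNA1 was low against Non-neural ectoderm (-1.97 ± 0.27) and near Mesoderm (-0.29 ± 0.26), and its call against the mean was lost on leaving out library 28 or 32 in turn (-1.04 to -0.95).

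Further genes with known neural roles were among the 19 called against both classes, and were picked out after their values were seen. TUBB2B, a tubulin of developing brain, had 175, 84.5, 94.5, 72.5 and 116 CPM in Neural ectoderm, against 22.8, 8.17, 16.3, 8.62 and 6.54 CPM in Non-neural ectoderm and 30.5, 25.1, 42.9, 12.7 and 19.05 CPM in Mesoderm (2.65 ± 0.34, adjusted p = 4.3e-05). PTN, the growth factor pleiotrophin, had 441, 575, 418, 106 and 851 CPM in Neural ectoderm, against 102, 119, 29.6, 54.8 and 15.3 CPM in Non-neural ectoderm and 144, 230.1, 68.6, 79.4 and 96.4 CPM in Mesoderm (2.49 ± 0.35, adjusted p = 1.5e-04). TUBB2B did not overlap between classes, whereas PTN of Neural ectoderm in library 31 was below 1 Non-neural ectoderm and 2 Mesoderm values. CNTNAP2, a cell adhesion protein of axons, was highest in Neural ectoderm of library 28 with 447 CPM (3.19 ± 0.51, adjusted p = 5.6e-04).

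**Figure D4:**
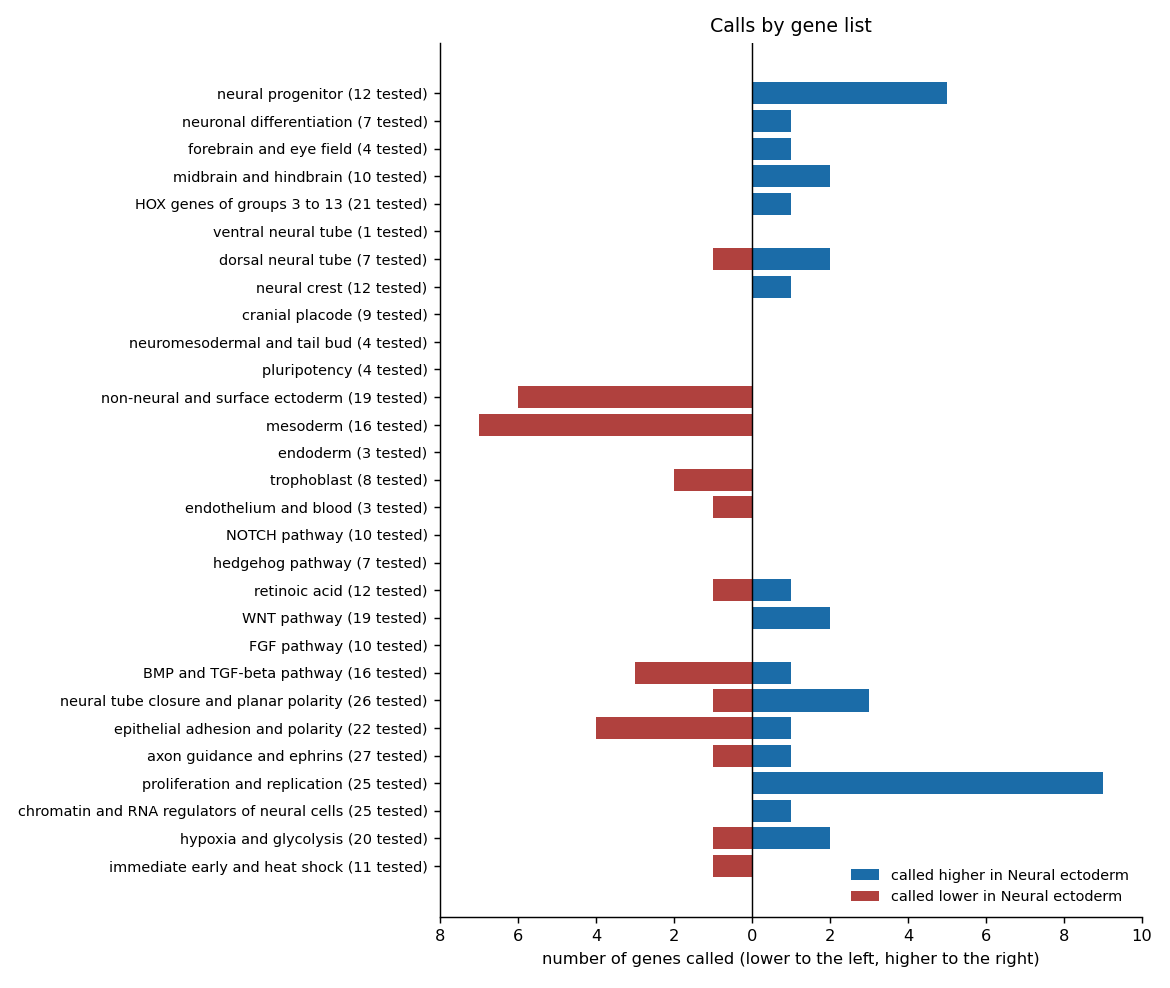
Number of genes called higher (to the right) and lower (to the left) in Neural ectoderm than the mean of Non-neural ectoderm and Mesoderm at E22, for 29 gene lists, each with the number of its genes tested. The longest bars are 9 of 25 proliferation genes and 5 of 12 neural progenitor genes called higher, and 7 of 16 mesoderm genes and 6 of 19 surface ectoderm genes called lower, where 1.30% and 1.79% of all genes were called. CRABP1 and ZIC2, markers given for the class, are among the 5 neural progenitor genes.

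Signalling genes showed few calls. None of 10 NOTCH genes, 7 hedgehog genes and 10 FGF genes tested was called (medians -0.10, -0.03 and 0.72). The hedgehog receptor and target PTCH1 had a median of 16.6 CPM in Neural ectoderm, 13.7 CPM in Non-neural ectoderm and 57.1 CPM in Mesoderm and was not called (-0.53 ± 0.54, adjusted p = 0.79). Of 19 WNT genes WNT1 and SFRP2 were higher and none was lower (median 0.52), where 1.30% and 1.79% of all genes were called. Of 12 retinoic acid genes CRABP1 was higher and DHRS3 lower (median -0.03).

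DHRS3, which reduces retinaldehyde and so limits retinoic acid, had 0.709, 0.939, 8.22, 0 and 1.78 CPM in Neural ectoderm, against 18.3, 151, 62.2, 29.8 and 47.96 CPM in Non-neural ectoderm and 19.1, 12.1, 14.9997, 34.9 and 17.3 CPM in Mesoderm. No Neural ectoderm value reached the lowest value of the other classes (-3.87 ± 0.79, adjusted p = 0.0059), though the call was lost with at least 10 cells per sum (-2.51, adjusted p = 0.57). ALDH1A2, the enzyme that makes retinoic acid in mesoderm, was not called (-0.23 ± 0.99, adjusted p = 0.97), nor was CYP26A1, which degrades it (1.31 ± 1.01, adjusted p = 0.68). Its relative CYP26C1, under the filter on low counts, was called higher without it (5.87 ± 1.54, adjusted p = 0.0082). The receptor gene RARB had a median of 73.3 CPM in Neural ectoderm, 117 CPM in Non-neural ectoderm and 42.4 CPM in Mesoderm and was not called (-0.19 ± 0.44, adjusted p = 0.93).

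Of 16 genes of the BMP and TGF-beta pathway, ID3 was higher and the ligands BMP2 and BMP4 and the decoy receptor BAMBI were lower (median -0.19). ID3, an inhibitor of differentiation and a target of BMP signals, had 591, 257, 1937, 1181 and 1241 CPM in Neural ectoderm, against 100.4, 194, 199.8, 226 and 419.7 CPM in Non-neural ectoderm and 503, 451, 482, 479.6 and 427 CPM in Mesoderm. Library 29 was low, below its Mesoderm value, and the other 4 libraries lay above both classes (1.47 ± 0.34, adjusted p = 0.015). The call of ID3 was lost on leaving out library 30 or 31 in turn (1.14 to 1.41) and without the replicate block. BMP2 had 6.38, 4.696, 1.37, 0 and 3.56 CPM in Neural ectoderm, against 52.9, 24.5, 32.6, 23.5 and 26.7 CPM in Non-neural ectoderm and 15.3, 19.04, 2.14, 18.4 and 15.2 CPM in Mesoderm (-2.76 ± 0.72, adjusted p = 0.034), and its call was lost on leaving out library 28, 29, 30, 31 or 32 in turn (-2.95 to -2.46) and with limma on the mean of cell CPM (-2.02). BAMBI lay at a median of 40.4 CPM in Neural ectoderm, 69.4 CPM in Non-neural ectoderm and 109 CPM in Mesoderm (-1.46 ± 0.35, adjusted p = 0.021), and its call was lost on leaving out library 28, 30, 31 or 32 in turn (-1.53 to -1.11).

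Genes of neural tube closure and planar polarity gave 3 higher calls, VANGL2, PAX3 and ZIC2, and 1 lower, FZD6, among 26 tested (median 0.18). Over all genes 1.30% were called higher and 1.79% lower. VANGL2, a core planar polarity protein whose loss leaves the neural tube open in mice, had 126, 143, 109, 37.3 and 104 CPM in Neural ectoderm, against 34.7, 32.7, 45.9, 21.9 and 55.6 CPM in Non-neural ectoderm and 47.1, 47.7, 56.4, 54.4 and 28.01 CPM in Mesoderm. It was above both classes in 4 of 5 libraries (1.22 ± 0.33, adjusted p = 0.045), and the call was lost on leaving out library 28, 29, 30 or 32 in turn (1.07 to 1.26) and with the other classes thinned (1.22). The polarity receptor FZD6 had 8.51, 25.4, 3.65, 0 and 0.889 CPM in Neural ectoderm, against 69.4, 75.6, 47.4, 25.1 and 53.96 CPM in Non-neural ectoderm and 27.8, 21.2, 30.7, 21.9 and 15.02 CPM in Mesoderm (-2.72 ± 0.66, adjusted p = 0.021), and its call was lost on leaving out library 28, 30, 31 or 32 in turn (-2.86 to -2.37) and without the replicate block.

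Of 22 adhesion and polarity genes tested, CDH6 was higher and EPCAM, CLDN7, LAMA5 and FN1 were lower (median -0.73). EPCAM, an adhesion protein of simple epithelia, had 111, 62.9, 94.9, 145 and 102 CPM in Neural ectoderm, against 829.5, 909, 1317, 714 and 1100.4 CPM in Non-neural ectoderm and 192, 32.01, 162, 157 and 177 CPM in Mesoderm. Its log2 difference was -3.31 ± 0.29 against Non-neural ectoderm (adjusted p = 2.4e-07) and -0.43 ± 0.27 against Mesoderm, which was not called (adjusted p = 0.66). The tight junction gene CLDN7 had 4.25, 0.939, 1.37, 0 and 0.889 CPM in Neural ectoderm, against 51.1, 135, 90.3, 60.3 and 79.03 CPM in Non-neural ectoderm and 6.83, 2.21, 0.714, 14.95 and 8.52 CPM in Mesoderm, with a call against Non-neural ectoderm (-5.82 ± 0.82, adjusted p = 1.1e-04) and none against Mesoderm (-1.56 ± 0.78, adjusted p = 0.50).

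The matrix gene FN1, fibronectin, was lower than in both classes, with a median of 152 CPM in Neural ectoderm, 443 CPM in Non-neural ectoderm and 488 CPM in Mesoderm (-1.41 ± 0.24, adjusted p = 0.0013). CDH1, the cadherin of epithelia, was seen in 5 of 57 Neural ectoderm cells, 32 of 47 Non-neural ectoderm cells and 15 of 170 Mesoderm cells, and was called lower than in Non-neural ectoderm (-5.18 ± 1.04, adjusted p = 0.0041) but not than the mean (-2.88 ± 0.94, adjusted p = 0.12). CDH2, the neural cadherin that mesoderm also expresses, had 115, 69.5, 99.5, 37.3 and 162 CPM in Neural ectoderm, against 10.95, 0, 1.48, 29.8 and 92.7 CPM in Non-neural ectoderm and 145, 163, 148, 135 and 191 CPM in Mesoderm. It was not called against either class (1.88 ± 0.61, adjusted p = 0.097, against Non-neural ectoderm; -0.63 ± 0.53, adjusted p = 0.80, against Mesoderm), and the Neural ectoderm value lay between the other classes in every library. The call of the laminin gene LAMA5 (-2.56 ± 0.68, adjusted p = 0.039) was lost on leaving out library 28, 29, 30, 31 or 32 in turn (-3.04 to -2.24).

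Of 19 surface ectoderm genes tested, none was higher and 6 were lower (median -1.87), where 1.30% and 1.79% of all genes were called. The 6 were KRT19, KRT7, EPCAM, GABRP, BMP4 and IGFBP3. KRT19, a keratin of simple epithelia, had 301, 664, 215, 433 and 453 CPM in Neural ectoderm, against 1966, 1469, 2083, 2090.5 and 2534 CPM in Non-neural ectoderm and 921, 1071, 1192, 1182 and 1137 CPM in Mesoderm. The 3 classes did not overlap, with Neural ectoderm lowest (-1.92 ± 0.19, adjusted p = 2.0e-06). KRT7 had 4.96, 20.7, 7.76, 8.29 and 8.89 CPM in Neural ectoderm, against 108, 89.9, 296, 161 and 104 CPM in Non-neural ectoderm and 62.4, 24.8, 7.86, 36.8 and 15.7 CPM in Mesoderm (-2.70 ± 0.54, adjusted p = 0.0050). The GABA-A receptor subunit gene GABRP was at most 16.9 CPM in Neural ectoderm and 61.3 to 259 CPM in Non-neural ectoderm, with up to 20.4 CPM in Mesoderm, and its call against the mean was lost on leaving out library 28, 29, 30 or 31 in turn (-3.72 to -3.31) and without the replicate block.

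DSP, the desmoplakin gene of desmosomes, had 49.6, 65.7, 48.4, 12.4 and 72.9 CPM in Neural ectoderm, against 402, 382, 422, 273 and 304 CPM in Non-neural ectoderm and 161, 126, 214, 224 and 266 CPM in Mesoderm. It was lowest in Neural ectoderm in all libraries and called against both classes (-2.45 ± 0.28, adjusted p = 1.4e-05). The placental cadherin CDH3 was likewise lower than both, with medians of 47.997 CPM in Neural ectoderm, 369 CPM in Non-neural ectoderm and 187 CPM in Mesoderm (-1.96 ± 0.30, adjusted p = 3.7e-04). Markers of Non-neural ectoderm, TFAP2A, GATA3 and EPCAM, summed to 127 to 350.1 CPM in Neural ectoderm (median 189), against 1058 to 2053 CPM in Non-neural ectoderm and 82.2 to 273 CPM in Mesoderm. The part of RNA of other cells in these levels was not tested.

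Several mesoderm genes were lower in Neural ectoderm but still detected. Of 16 tested, 7 were lower and none was higher (median -1.24), where 1.79% and 1.30% of all genes were called. The 7 were HAND1, HAND2, COL1A1, COL1A2, COL3A1, LUM and POSTN. COL3A1, a fibrillar collagen, had 475, 265, 229.6, 180.2 and 216 CPM in Neural ectoderm, against 684, 629, 534, 750.4 and 523 CPM in Non-neural ectoderm and 1559.9, 1946, 1203, 1025 and 1232 CPM in Mesoderm. The classes did not overlap and Neural ectoderm was lowest (-1.83 ± 0.17, adjusted p = 5.9e-07). COL1A1 had 303, 302, 114, 128 and 189 CPM in Neural ectoderm, against 467, 435, 422, 782 and 418 CPM in Non-neural ectoderm and 839, 1169, 893, 797 and 875 CPM in Mesoderm (-1.77 ± 0.21, adjusted p = 2.3e-05). A count of COL1A1 was present in 56 of 57 Neural ectoderm cells, in all 47 Non-neural ectoderm cells and in all 170 Mesoderm cells.

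LUM, a proteoglycan of connective tissue, had 191, 119, 95.8, 55.9 and 58.7 CPM in Neural ectoderm, against 290.2, 135, 144, 313 and 455 CPM in Non-neural ectoderm and 1358, 1401, 1318, 1056 and 1144 CPM in Mesoderm (-3.62 ± 0.31 against Mesoderm, adjusted p = 2.9e-07). The heart and limb factors HAND1 and HAND2 had medians of 50.7 and 5.67 CPM in Neural ectoderm, 89.3 and 23.4 CPM in Non-neural ectoderm and 176 and 55.7 CPM in Mesoderm. Their calls were fragile, since that of HAND1 was lost on leaving out library 28, 30 or 32 in turn (-1.51 to -1.37) and that of HAND2 was lost without library 32 (-2.19) and with limma on the mean of cell CPM (-1.75). The call of POSTN was lost without library 31 (-1.75). The 5 mesoderm markers PDGFRA, FOXF1, HAND1, COL1A1 and TWIST1 summed to 165 to 442 CPM in Neural ectoderm, against 517 to 880 CPM in Non-neural ectoderm and 987 to 1395 CPM in Mesoderm. Whether these counts are the cells' own RNA was not tested.

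Part of the cell cycle genes were higher in Neural ectoderm. Of 25 tested, 9 were called higher and none lower (median 0.73), where 1.30% and 1.79% of all genes were called. The 9 were TOP2A, CCNB2, CCND1, CDK1, AURKA, AURKB, BUB1, TYMS and HMGB2. TOP2A, the topoisomerase of dividing cells, had 1370.0, 983, 1031, 1487 and 664 CPM in Neural ectoderm, against 642, 40.9, 272, 218 and 718 CPM in Non-neural ectoderm and 460.5, 260.5, 286, 881 and 620.3 CPM in Mesoderm (1.57 ± 0.31, adjusted p = 0.0050). The kinase gene AURKB had 322, 184, 139.7, 399.8 and 128 CPM in Neural ectoderm, against 96.7, 10.2, 35.5, 75.97 and 94.8 CPM in Non-neural ectoderm and 111, 90.8, 83.6, 167 and 125 CPM in Mesoderm and was above both classes in all 5 libraries (1.43 ± 0.28, adjusted p = 0.0041). HMGB2, a chromatin protein of proliferating cells, had 4508, 2866, 2821, 3349.8 and 1758 CPM in Neural ectoderm, against 1397, 813, 1084, 851 and 1904 CPM in Non-neural ectoderm and 1680.4, 1393, 1762, 1988 and 1709 CPM in Mesoderm (1.08 ± 0.17, adjusted p = 3.7e-04). Library 32 had the smallest Neural ectoderm value of all 3 genes, and for TOP2A and HMGB2 it lay below Non-neural ectoderm of that library.

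Of the 9 cell cycle genes, TOP2A, AURKB and HMGB2 kept the call in all 14 alternative settings. The calls of CCNB2 and CCND1 were each lost on leaving out 1 of 2 libraries (28 or 30, log2 difference 0.81 to 1.11, and 29 or 32, 1.11 to 1.26). Those of AURKA, BUB1, CDK1 and TYMS were each lost on leaving out 1 of libraries 28 to 31, at 1.21 to 1.55, 0.70 to 0.88, 0.97 to 1.41 and 0.60 to 0.77. The call of CDK1 was also lost without the replicate block (1.06, adjusted p = 0.078), with limma on the mean of cell CPM (0.93, adjusted p = 0.17) and with Extraembryonic Mesoderm in the fit (adjusted p = 0.058). That of BUB1 was also lost with limma (0.70, adjusted p = 0.099). Against Mesoderm alone HMGB2 was the 1 of the 9 that was called (0.86 ± 0.19, adjusted p = 0.018). The mitotic genes CENPF and SGO1, outside the list, were called against both classes (1.12 ± 0.16 and 1.69 ± 0.30 against the mean). EZH2, the Polycomb methyltransferase, was the 1 of 25 chromatin genes called (0.70 ± 0.17, adjusted p = 0.025), and the call was lost on leaving out library 28, 29 or 30 in turn (0.51 to 0.73) and with limma (0.64).

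Metabolic genes gave few calls. Of 20 glycolysis and hypoxia genes tested, PGK1 and ENO1 were higher and SLC2A1 lower (median 0.18). The glucose transporter gene SLC2A1 had 434, 617, 535, 292 and 841 CPM in Neural ectoderm, against 1303, 1475, 2447, 1194 and 2873 CPM in Non-neural ectoderm and 464, 595, 648, 762 and 798 CPM in Mesoderm, and was called against Non-neural ectoderm (-1.72 ± 0.19, adjusted p = 5.9e-06) but not against Mesoderm (-0.38 ± 0.19, adjusted p = 0.49). The enolase gene ENO1 was higher than both classes in every library at a small size (0.59 ± 0.10, adjusted p = 0.0012), and the call of PGK1 (0.48 ± 0.12) was lost on leaving out library 28, 29 or 32 in turn (0.44 each). FOS, an immediate early gene that tissue dissociation can induce, was the 1 of 11 stress genes called and was lower, with 1288, 931, 607, 580.1 and 652 CPM in Neural ectoderm, against 1693, 2372, 2500.2, 1169 and 1388 CPM in Non-neural ectoderm and 1351, 1985, 1379, 928 and 956 CPM in Mesoderm (-0.94 ± 0.14, adjusted p = 3.4e-04).

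Several of the genes with the largest differences belong to none of the lists. GLRA1, a glycine receptor subunit, had 23.4, 48.8, 43.4, 45.6 and 129.8 CPM in Neural ectoderm, against 0, 0, 0, 0.783 and 0 CPM in Non-neural ectoderm and 12.3, 11.04, 0, 0.767 and 6.72 CPM in Mesoderm, with a count in 17 of 57 Neural ectoderm cells. ANO3, of the anoctamin family, had 109.9, 37.6, 96.3, 64.2 and 75.6 CPM in Neural ectoderm, against 0, 0, 0, 0 and 3.82 CPM in Non-neural ectoderm and 6.601, 9.66, 0.714, 18.4 and 0.672 CPM in Mesoderm. Neither overlapped between classes (5.76 ± 0.87 and 4.97 ± 0.78 against the mean, adjusted p = 3.7e-04 and 4.6e-04). RFX4, a factor of the developing neural tube in mouse, had 87.9, 77.96, 62.98, 10.4 and 55.1 CPM in Neural ectoderm, against 1.83, 2.04, 2.96, 0 and 1.64 CPM in Non-neural ectoderm and 21.4, 8.002, 31.4, 0 and 7.396 CPM in Mesoderm (4.01 ± 0.59, adjusted p = 2.6e-04). Its Neural ectoderm value of library 31 was below Mesoderm values of libraries 28 and 30.

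PPP1R1A, an inhibitor of protein phosphatase 1, had 177, 82.7, 29.2, 20.7 and 57.8 CPM in Neural ectoderm, against 13.7, 8.17, 0, 1.57 and 4.36 CPM in Non-neural ectoderm and 7.51, 10.8, 0.714, 3.45 and 12.1 CPM in Mesoderm, without overlap (3.54 ± 0.56, adjusted p = 5.2e-04). MEIOB, a meiotic recombination gene, had 95.7, 101, 51.1, 84.9 and 54.2 CPM in Neural ectoderm, against 0, 30.7, 0, 0 and 4.36 CPM in Non-neural ectoderm and 26.9, 15.2, 11.4, 11.5 and 28.5 CPM in Mesoderm, also without overlap (3.33 ± 0.67, adjusted p = 0.0051). Against Mesoderm alone MEIOB was not called (1.93 ± 0.76, adjusted p = 0.30). The level of MEIOB in pooled EPI cells was 41.9 CPM, and it reached 134 CPM in an EPI library, above every Neural ectoderm value.

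In the other direction, PARM1 and SULT1C4 ranked first among the genes named by rule. PARM1, a mucin-like membrane protein, had 3.55, 3.76, 3.19, 8.29 and 0.889 CPM in Neural ectoderm, against 62.1, 38.8, 35.5, 32.1 and 27.3 CPM in Non-neural ectoderm and 72.8, 48.8, 142, 101 and 72.4 CPM in Mesoderm (-4.07 ± 0.50, adjusted p = 3.0e-05). SULT1C4, a sulfotransferase, had 8.51, 22.5, 17.3, 35.2 and 42.7 CPM in Neural ectoderm, against 203, 217, 69.6, 188 and 226 CPM in Non-neural ectoderm and 476, 268, 404, 325 and 245 CPM in Mesoderm (-3.40 ± 0.40, adjusted p = 1.9e-05). Among the classes compared within E22, both were lowest in Neural ectoderm with no overlap. Low levels were not particular to Neural ectoderm, as libraries of other classes, with cells nearly all of other embryos, reached similar values. PARM1 had 0.759 to 6.17 CPM in EPI, 1.21 to 7.82 CPM in PS and derivative and 0.975 to 8.44 CPM in Endoderm. SULT1C4 had 2.28 to 26.3 CPM in EPI, 4.55 to 30.2 CPM in Endoderm and 6.04 to 92.5 CPM in PS and derivative. RGS5, a regulator of G protein signals known from pericytes, had medians of 128 CPM in Neural ectoderm, 820.1 CPM in Non-neural ectoderm and 673 CPM in Mesoderm (-2.59 ± 0.45, adjusted p = 0.0014). The remaining 6 named by rule were RAMP1, a receptor partner, FRMD4B, CYP1B1, a cytochrome P450, FAM114A1, ARHGAP29, a GTPase activator, and COX4I2, a respiratory subunit, with log2 differences of -3.17, -2.97, -2.94, -2.66, -2.64 and -2.62. Of these the call of FAM114A1 was lost on leaving out library 28, 29, 30 or 31 in turn (-2.86 to -2.16) and without the replicate block, and that of COX4I2 was lost without library 28 (-2.37).

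Other cell types were followed through their markers. Trophoblast markers PAGE4, XAGE2 and CGA summed to 35.2 to 68.5 CPM in Neural ectoderm, against 82.9 to 493 CPM in Non-neural ectoderm and 100.0 to 185 CPM in Mesoderm, and XAGE2 was at 0 in Neural ectoderm. Of 8 trophoblast genes tested KRT7 and PAGE4 were lower and none was higher (median -1.74), and the call of PAGE4 was lost on leaving out library 28, 31 or 32 in turn (-1.91 to -1.61). Endoderm markers SOX17, APOA1 and TTR summed to 14.5 to 61.7 CPM in Neural ectoderm, against 11.8 to 50.2 CPM in Non-neural ectoderm and 32.3 to 153 CPM in Mesoderm, and none of 3 endoderm genes tested was called. CER1, an inhibitor of WNT, BMP and NODAL signals listed among the endoderm genes, was under the filter on low counts and was called higher without it (5.37 ± 1.13, adjusted p = 1.8e-04). Endothelial markers PECAM1 and CDH5 summed to 0 to 24.4 CPM in Neural ectoderm, against 0 to 7.83 CPM in Non-neural ectoderm and 2.05 to 30.9 CPM in Mesoderm, and the blood gene HBZ was at 0 in all 3 classes. Of 3 endothelial and blood genes tested, the receptor gene TEK was lower, with a call that was lost on leaving out library 28, 29, 30 or 31 in turn (-2.62 to -2.37) and with limma on the mean of cell CPM (-1.97). The part of these cells' RNA in the differences above was not tested.

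The classes EPI, PS and derivative and Endoderm come nearly all from other days and embryos, so class and embryo cannot be told apart and only levels are given. CRABP1 had a median of 761 CPM in Neural ectoderm, against 58.5 CPM in EPI (21.2 to 746 over 5 libraries), 8.02 CPM in PS and derivative (7 libraries) and 5.52 CPM in Endoderm (up to 512 over 4 libraries). PAX3 and WNT1 had medians of 66.3 and 110.0 CPM in Neural ectoderm, whereas they were at 0 in all 5 EPI libraries and reached at most 2.78 and 1.49 CPM in a PS and derivative library. ZIC2, SOX2 and HOXA3 did not have their highest median in Neural ectoderm. HOXA3 had a median of 132 CPM in PS and derivative (13.3 to 295). DRAXIN had a median of 78.7 CPM in Endoderm (21.4 to 95.6), inside its Neural ectoderm range. DPYSL5 reached 75.7 CPM and CDH6 34.1 CPM in an EPI library, and PPP1R1A 52.6 CPM in an Endoderm library. These values also lay inside the Neural ectoderm ranges. VIM reached 1388 CPM in an EPI library, above all its Neural ectoderm values. MEIOB reached 134 CPM in an EPI library, above all its Neural ectoderm values. ZIC2 had a median of 66.6 CPM in Neural ectoderm, against 310 CPM in Endoderm (56.5 to 374) and 53.0 CPM in PS and derivative. SOX2 had a median of 20.7 CPM in Neural ectoderm, against 42.7 CPM in EPI (0.88 to 61.5). Thus in level ZIC2 overlapped with EPI, PS and derivative and Endoderm, and SOX2 with EPI and PS and derivative. CRABP1 overlapped as well, since its highest EPI and Endoderm libraries lay inside its Neural ectoderm range.

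Of the pluripotency genes, 4 are set against pooled EPI cells. NANOG had 1.47 CPM and TDGF1 0.147 CPM in pooled Neural ectoderm cells of E22, against 154 and 112 CPM in EPI. DPPA4 had 24.2 CPM in Neural ectoderm, against 391 CPM in EPI, and OTX2, which epiblast also expresses, 2.64 CPM in Neural ectoderm, against 88.2 CPM in EPI. Of 4 pluripotency genes tested within E22 none was called (median log2 difference 0.50, against -0.03 over all genes). The epiblast markers NANOG and DPPA4 summed to 10.4 to 54.2 CPM in Neural ectoderm, against 2.04 to 80.7 CPM in Non-neural ectoderm and 0.714 to 11.2 CPM in Mesoderm.

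The 57 cells were not alike. Beside CRABP1, seen in 56, the neural genes were seen in part of the cells: ZIC2 in 39, DRAXIN in 38, DPYSL5 in 35, PAX3 in 34, CDH6 in 30, MAP2 in 25, WNT1 in 21 and ZIC1 in 18. The 39 cells with ZIC2 had a median of 117146 counts in all and the 18 without it 67973. For PAX3 it was the other way, with 98888 in the 34 cells with it and 129602 in the 23 without it. Whether depth shaped these numbers was not tested. Where a gene was seen, its level was often low, with a median of 35.5 counts for CRABP1, 12 for ZIC2 and 6 for SOX2.

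A few of the gene pairs examined are given here. SOX2 was seen in 19 cells, of which 17 had ZIC2 and 15 had MAP2, against 39 and 25 of all 57. All 18 cells with HOXB1, a hindbrain gene, had ZIC2. WNT1 was seen in 21 cells, of which 19 had TFAP2A, 16 had PAX3 and 16 had CDH6. TFAP2A, PAX3 and CDH6 were seen in 37, 34 and 30 of all 57 cells. Of the 11 cells with SOX10, 2 had WNT1. PAX3 and CDH6 were seen together in 22 cells. These counts describe detection in 57 cells of 1 embryo that differ in depth, and no test was made.

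**Figure D5:**
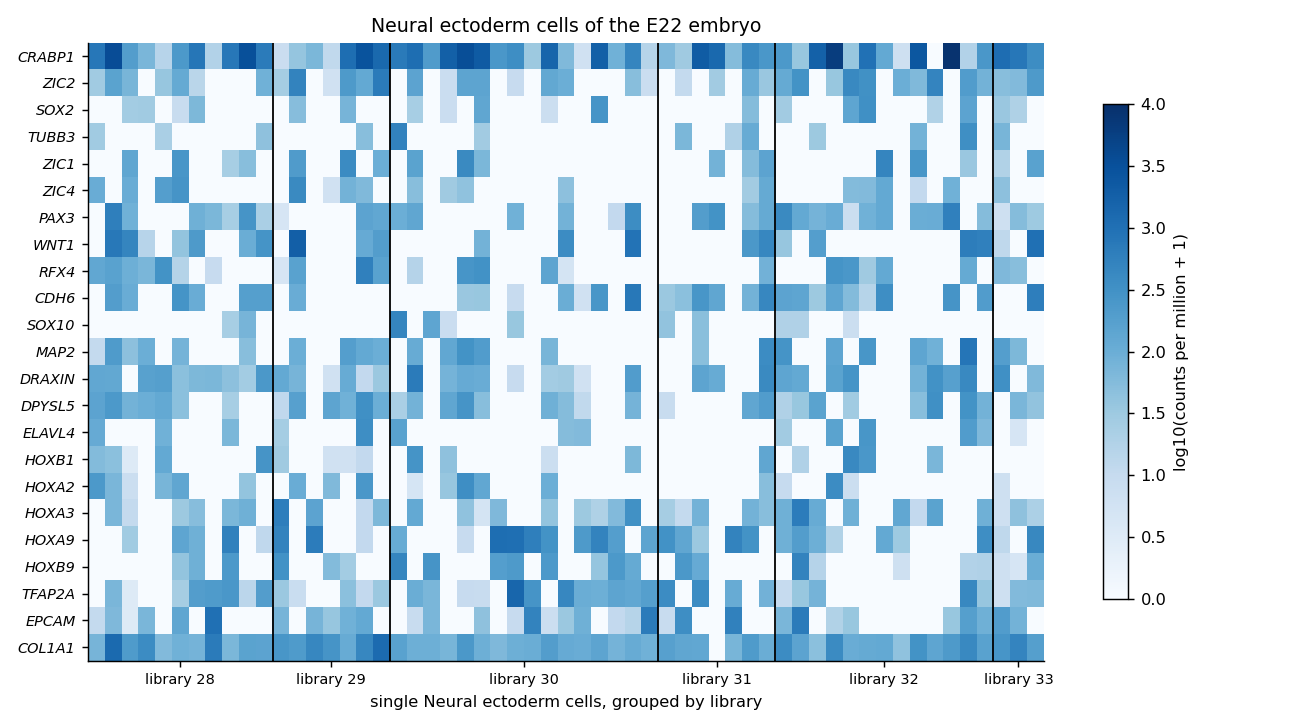
Level of 23 genes (rows) in the 57 Neural ectoderm cells of the E22 embryo (columns, grouped by library 28 to 33), as log10 of CPM plus 1. CRABP1 and COL1A1 are seen in 56 cells each, ZIC2 in 39 and PAX3 in 34. Posterior HOXA9 is seen in 32 cells, spread over the libraries.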

How the data were processed

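Whole-number counts per gene and cell were deposited by the authors for 3682 cells, with a table of classes, clusters, embryo and sex. Per the submitters' processing notes, cutadapt 1.15, STAR 2.6.0a and HTSeq 0.10.0 made them; the sources used here do not give the genome build, doublet removal, use of strand or whether molecules were counted. Doublets were left in. No cell held the same counts as another. Deposited cell totals equalled the column sums in all 3682 cells, from 871 to 2831708 counts (library totals 4393315 to 30568931). Libraries 26 and 27 carry contradictory day labels and entered no group (149 cells, 0 Neural ectoderm).

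Counts of E22 cells were summed per library and class where at least 5 cells were present, giving 17 sums; Neural ectoderm of library 33 (3 cells) gave none. The sums were fitted with edgeR 4.0.16 (quasi-likelihood, TMM, filterByExpr, library as a block; R 4.3.3) over 9210 genes with Benjamini-Hochberg adjustment. The libraries share 1 embryo, so same-numbered sums pair by construction. Depth was compared with a two-sided exact permutation test (scipy 1.17.1). On simulated data the fit called 5% of genes changed by a log2 of 1 and 49% of those changed by 2. There every gene had the same biological coefficient of variation (0.593), and no library effect was simulated. These shares therefore do not carry over to genes with a smaller or larger spread. Alternatives, among them DESeq2 1.42.0 and limma 3.58.1, are listed at the end. SE stands for standard error, and values after ± beside a log2 difference are approximate SE. Each was taken as the absolute log2 difference divided by the square root of the F statistic of its test. It is not the standard error of the fitted coefficient. For a gene with few or no counts in a class it is unreliable.

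Named by rule were the 12 genes with the largest difference in each direction among called genes with a symbol, at least 50 CPM on the higher side and the same sign against both classes in every library, besides members of 29 gene lists and the class markers. Members and lists were chosen with earlier results of these data known. Gene symbols are the authors'. POU5F1, KRT8, KRT18, HBE1, HBA1 and LIN28A are not analysed here, some genes are not reported here, and no sequences were used here. Single cells carry counting error only in their intervals; a count of 0 was taken to allow 3 counts.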

Additional observations from a re-analysis of the deposited data

Results flagged for a closer look

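Of 31 groups of 5 libraries examined with Dixon's test at the 95% level, 3 held a library far from the other 4, and chance alone marks some groups at that level. GLRA1 in Neural ectoderm was 130 CPM in library 32, while the other libraries lay between 23.4 and 48.8 CPM. KRT7 in Neural ectoderm was 20.7 CPM in library 29, against 4.96 to 8.89 CPM in the others. MAP2 in Neural ectoderm was 115 CPM in library 32, against 48.9 to 65.7 CPM in the others. Without library 32 the calls of GLRA1 and MAP2 were kept, and without library 29 that of KRT7 was kept.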

How the results depend on the processing

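The 285 genes called against the mean of both classes became 579 with the DESeq2 Wald test, 478 without a filter on low counts, 491 with Extraembryonic Mesoderm in the fit and 155 to 310 on leaving out 1 library. The 379 called against Non-neural ectoderm became 774 with DESeq2, 137 with at least 10 cells per sum, 590 with limma on the mean of cell CPM (pseudocount 1), 650 with Extraembryonic Mesoderm and 244 to 410 on leaving out 1 library. The 133 called against Mesoderm became 391 with DESeq2, 366 with at least 10 cells per sum, 217 with limma, 313 without the filter, 322 with Extraembryonic Mesoderm and 69 to 146 on leaving out 1 library. Without the replicate block the 3 counts were 322, 443 and 170, of which 246, 347 and 123 genes were shared with the fit that has the block. DESeq2 size factors in edgeR gave 295, 390 and 136, and thinning the other classes 286, 367 and 141. The causes were not tested.

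With at least 10 cells per sum, ZIC2 turned to -1.15 (adjusted p = 0.99), and 3 of the 285 genes and 9 of the 379 turned sign; the lone Non-neural ectoderm sum is there assumed to vary like the other sums. In the other settings no called gene turned sign. Of 80 genes followed, 28 lost the call on leaving out at least 1 library, and with at least 10 cells per sum 30 lost it with the same sign and ZIC2 with its sign turned. The differences in counts and genes per cell ran from -9352 to 9739 and from 81.1 to 347 on leaving out 1 library. Under the filter on low counts were 194 list members. Without it 8 of them were called higher, among them SOX2, ZIC5, FOXJ1, PAX7, WNT8A, CER1 and CYP26C1, and none lower. Over all 16761 genes of that fit, 232 were called higher and 246 lower. Genes near 0 in the other classes could be called there only as higher, and the part of depth was not tested.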
